A study of Mus musculus with 2 samples.

Results

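The calcitonin peptides and their receptor components were described in sorted luminal cells of the mammary gland of mice with and without a Cre driver that targets the microRNA cluster miR-200c/141. The 7 genes were taken by name from the deposited table of 16906 genes. They are the ligand genes Calca, Calcb and Adm, the receptor gene Calcrl, and the accessory protein genes Ramp1, Ramp2 and Ramp3. All 7 were in the table. They were chosen by their FPKM values in these same libraries, so their levels and ratios are a description, with no test, and support nothing by themselves.

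Mice of the control group (Ctrl) had loxP sites around the cluster and no Cre (miR-200c/141-flox/flox). Those of the knockout group (CKO) had in addition CreERT2, a Cre recombinase activated by tamoxifen, under the keratin 8 promoter (K8-CreERT2;miR-200c/141-flox/flox). Both groups were C57BL/6, 8 weeks old, carried the floxed allele and received tamoxifen. The time between tamoxifen and harvest is 4 weeks in 1 label and 3 days in another. Only CKO mice carried the Cre driver, so an effect of Cre itself and an effect of the deletion cannot be told apart. Luminal cells were enriched by fluorescence-activated sorting, and about 20000 were used for RNA. With 1 library for each group, differences could not be set against the spread between mice.

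Calcitonin, the calcitonin gene-related peptides (CGRP) and adrenomedullin are small secreted peptides of one family. Calca makes calcitonin or alpha-CGRP by alternative splicing, Calcb makes beta-CGRP, and Adm makes adrenomedullin. Calcrl encodes a class B G protein-coupled receptor that reaches the cell surface together with a receptor activity-modifying protein. With RAMP1 it forms the CGRP receptor, and with RAMP2 or RAMP3 it forms adrenomedullin receptors, which signal mainly through Gs and cyclic AMP. In most tissues the receptor is best known from blood vessels, and CGRP from sensory nerves.

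The mature microRNAs miR-200c-3p and miR-141-3p of the floxed cluster are given first, because each gene was searched for matches to them. Other mature forms from the cluster were not searched. Whether microRNAs outside the cluster have the same seeds was not examined. Mature sequences are from RefSeq (GRCm38.p6), both on the minus strand of chromosome 6, and the capitals mark the seed, bases 2 to 8.
mmu-miR-200c-3p: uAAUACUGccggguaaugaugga
mmu-miR-141-3p: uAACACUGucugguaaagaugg
The 7-mers that pair with these seeds were sought in the 3' untranslated regions of the coding transcripts of GENCODE M21 (GRCm38), leaving out regions under 30 bases. Calcrl held 4 matches, Ramp1 held 1 and Ramp2 held 1. Calca, Calcb, Adm and Ramp3 held none in these annotated transcripts. The length deposited with the expression values is 2287 bases for Calcb and 1123 for Calca. Their longest coding transcripts searched have 962 and 994 bases. Bases beyond the annotated transcripts were not searched. The searched regions differ in length. The longest had 2828 bases in Calcrl, 1835 in Ramp1 and 558 in Ramp2. It had 452 in Calca, 482 in Calcb, 652 in Adm and 737 in Ramp3. The share of all genes with such matches was not measured. The matches follow with 10 bases on each side and the 7-mer in capitals, 5' to 3' on the transcript strand.
Calcrl, chr2:84331967-84331973, minus strand, miR-200c-3p: aacactgtttCAGTATTtcagtagact
Calcrl, chr2:84331201-84331207, minus strand, miR-200c-3p: taagattagtCAGTATTagttttgtaa
Calcrl, chr2:84331413-84331419, minus strand, miR-141-3p: tcttcgctgaCAGTGTTcgtgtaattc
Calcrl, chr2:84330891-84330897, minus strand, miR-141-3p: taggagtagtCAGTGTTatacttactg
Ramp1, chr1:91206594-91206600, plus strand, miR-200c-3p: ttcctgttgtCAGTATTtctcctgcac
Ramp2, chr11:101247696-101247702, plus strand, miR-141-3p: caggtaggggCAGTGTTgaaggatgga
The coordinates are those of the 7-mer. The Calcrl matches lie in the last exon of both coding transcripts, Calcrl-201 (exon 16 of 16) and Calcrl-202 (exon 13 of 13). The Ramp1 match lies in the coding transcripts of 852 and 711 bases and not in the longest, of 2325 bases. The Ramp2 match lies in 1 of 4 coding transcripts, of 899 bases. A match is a sequence description and not a measured binding site.

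Expression is given in FPKM (fragments scaled to transcript length and sequencing depth), as deposited. The reads behind each value were recovered as whole numbers from the deposited p-values, and for each of the 7 genes a single pair of read numbers matched. About 12700000 reads lay behind Ctrl and 11600000 behind CKO. Log2 ratios are CKO over Ctrl with 0.5 FPKM added to both values. Beside each stands the 95% interval of the ratio of reads, by the Clopper-Pearson method given the summed reads, which covers counting error only. A gene with a mean of at least 1 FPKM was called measured. It was called higher or lower when its ratio was at least 1.5-fold and its interval excluded a ratio of 1. Of the 7 genes, 5 were measured, and of these 4 were lower in CKO (Calca, Calcb, Adm and Ramp3) and 0 were higher. Over all 11667 measured genes, 2.97% were lower by this rule and 2.25% were higher, with a median log2 ratio of -0.03. At 2-fold, Calca and Calcb were lower, against 0.549% of all measured genes, and 0 members were higher, against 0.746%. These shares are background only, since the members were chosen on this contrast.

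**Figure D1:**
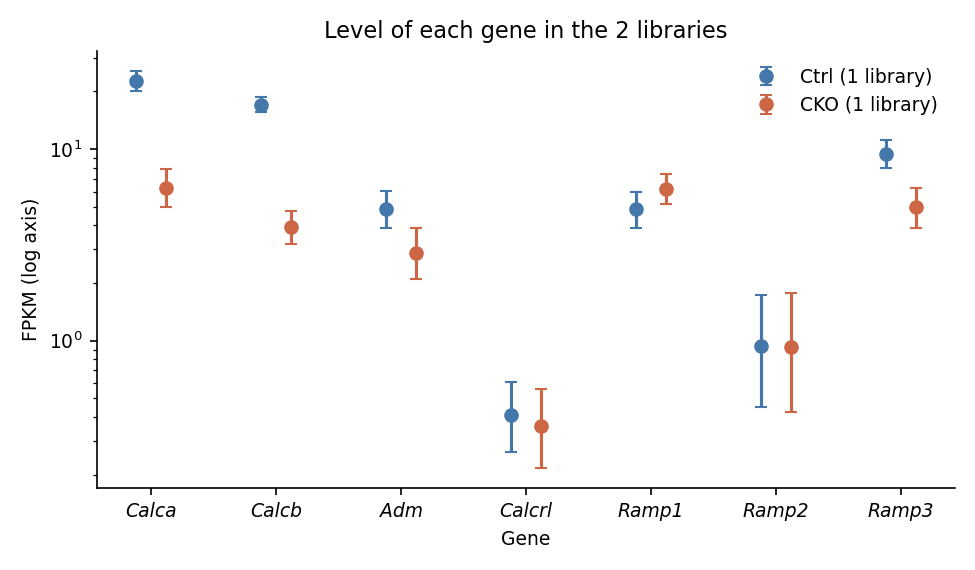
FPKM of each of the 7 genes (log axis) in the Ctrl library (blue) and the CKO library (orange), 1 point per library; bars are exact 95% Poisson intervals from the recovered reads. The intervals of the libraries are apart for Calca, Calcb, Adm and Ramp3 and overlap for Calcrl, Ramp1 and Ramp2.

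The CGRP and calcitonin genes were the members farthest apart between the libraries. Calca (Entrez gene 12310, chr7:114625981-114636910) had 22.82 FPKM in Ctrl against 6.29 in CKO, from 272 and 79 reads. The counting intervals of the levels, 20.2 to 25.7 FPKM in Ctrl and 4.98 to 7.84 in CKO, did not overlap. The log2 ratio of Calca was -1.78, with an interval of -2.04 to -1.29. Calca stood above 78.9% of the genes of the table in Ctrl and above 53.4% in CKO.

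Calcb (Entrez gene 116903, chr7:114716555-114723368) had 17.07 FPKM in Ctrl against 3.94 in CKO, from 492 and 103 reads. Its level intervals, 15.6 to 18.6 FPKM and 3.22 to 4.78, did not overlap either. The log2 ratio of Calcb was -1.98, with an interval of -2.45 to -1.82. Among the 8870 genes that reached 5 FPKM in either library, Calcb had the 9th lowest log2 ratio, Calca the 12th lowest and Ramp3 the 46th lowest. In the authors' deposited table Calca and Calcb are both called down, with false discovery rates of 9.29e-21 and 1.81e-52. That test set the reads of 1 library against those of the other, so it compares the libraries and not the genotypes.

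**Figure D2:**
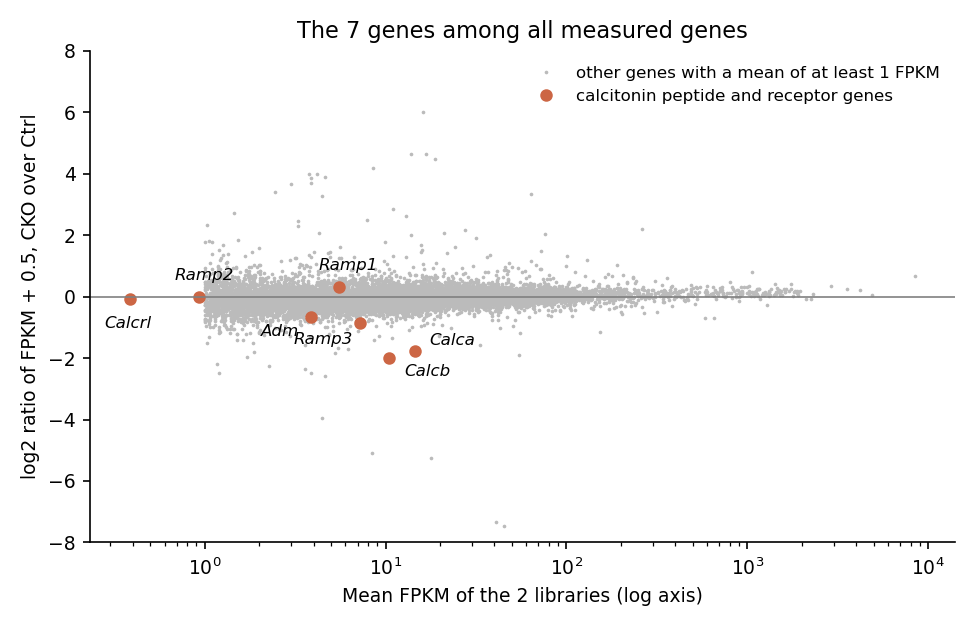
Log2 ratio of FPKM + 0.5 (CKO over Ctrl) against the mean FPKM of the 2 libraries (log axis), 1 grey point per measured gene, with the 7 described genes in orange. Calcb at -1.98 and Calca at -1.78 lie near the lower edge of the genes of like level, and Calcrl, Ramp1 and Ramp2 lie near 0.

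The Calca to Calcb ratio in FPKM had overlapping counting intervals in the libraries. By FPKM, Calca exceeded Calcb 1.34-fold in Ctrl (counting interval 1.15 to 1.55) and 1.60-fold in CKO (1.18 to 2.16). By reads, Calcb exceeded Calca, with 492 against 272 in Ctrl and 103 against 79 in CKO. The order thus depends on the lengths used. The listed lengths are 1123 bases for Calca and 2287 for Calcb. Their longest coding transcripts in GENCODE M21 have 994 and 962 bases. Both genes lie on chromosome 7, with the predicted pseudogenes Gm18599 and Gm15500 annotated between them. The nearest coding genes on either side were scarcely expressed. Cyp2r1, a vitamin D hydroxylase gene next to Calca, had 0.57 FPKM in Ctrl against 0.19 in CKO, and Pde3b, a cyclic nucleotide phosphodiesterase gene, was at 0.27 and 0.13. Insc, a cell polarity gene next to Calcb, was at 0.07 FPKM in Ctrl and listed at the floor of 0.01 in CKO. The log2 intervals of these neighbours all included 0.

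Calca and Calcb are paralogs, so the sequence that their transcripts have in common was measured. The longest shared run between Calca-201 (994 bases) and Calcb-201 (962 bases) was 60 bases, inside the coding region of both. It crosses the junction of exons 3 and 4 in both transcripts.
Calca-201 and Calcb-201, shared run: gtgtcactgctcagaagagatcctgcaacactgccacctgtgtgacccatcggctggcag
Of the 25-base windows of Calcb-201, 4.69% occur in Calca-201. None occurs in Calca-202 (830 bases), the second longest coding transcript of Calca. Reads from the shared run cannot be assigned to 1 gene by sequence, while most 25-base windows of these annotated transcripts are distinct. The listed length of Calcb is 2287 bases, and bases beyond its annotated transcripts were not compared. The deposited values are per gene, so calcitonin and CGRP transcripts of Calca cannot be told apart.

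Reads and FPKM gave different ratios for Calca and for Ramp1. The Calca log2 ratio of reads was -1.66, 3.15-fold lower in CKO, against 3.63-fold for FPKM. The reads and the FPKM of Calca together imply a mean transcript length of 976 bases in Ctrl, where the table lists 1123. For Ramp1 the implied length in Ctrl was 1415 bases, where the table lists 1811. The listed length is that of CKO: when reads were sought within 15% of the value it predicts, they lay within 2% of it for 2531 of 2532 genes in CKO and for 1784 in Ctrl. An implied length in Ctrl over 10% away from the listed one was found for 3.71% of 8146 genes with at least 50 reads in each library. For the other 5 members it lay within 10%.

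The bases around a RefSeq start site of Calca are given because Calca and Calcb were lower together. This stretch lies inside the annotated span of Calca, which begins at 114636910 on the minus strand. Bases upstream of that position were not searched. No Calcb or Ramp2 promoter was used here. The promoter is from RefSeq (GRCm38.p6), chr7:114636308-114636607, minus strand, from 250 bases before to 50 after the start, and the capitals mark TGACG, the short form of the cyclic AMP response element.
Calca promoter: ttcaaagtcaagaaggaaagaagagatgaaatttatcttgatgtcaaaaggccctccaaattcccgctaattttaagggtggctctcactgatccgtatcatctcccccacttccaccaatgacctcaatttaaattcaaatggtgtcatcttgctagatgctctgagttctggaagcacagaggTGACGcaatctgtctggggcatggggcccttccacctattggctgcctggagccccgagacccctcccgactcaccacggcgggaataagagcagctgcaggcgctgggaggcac
Of the 5 member promoters in the RefSeq table, those of Calca (65 bases before the start) and Ramp1 (11 bases after it, on the other strand) held TGACG on either strand, against 20.8% of 32851 promoters. The full element TGACGTCA, which contains the short form, the palindromic estrogen response element, the TATA box TATAAA and the hypoxia core ACGTG were also sought on both strands. None of the 5 member promoters held any of these in the 300 bases. Over all promoters the shares were 1.79%, 0.07%, 13.6% and 19.6%, in that order.

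Adrenomedullin was the third ligand gene that was lower in CKO. Adm (Entrez gene 11535, chr7:110627657-110629820) was at 4.89 FPKM in Ctrl, with an interval of 3.89 to 6.06, and at 2.88 in CKO, with an interval of 2.09 to 3.87. These levels rest on 83 and 44 reads, and their intervals fall just short of meeting. The log2 ratio of Adm was -0.67, with an interval of -1.35 to -0.24. The authors' deposited table gives Adm a false discovery rate of 0.0171 and no call. Adm2, which encodes the related peptide intermedin and is no member, was at 5.62 FPKM in Ctrl against 6 in CKO, and its log2 ratio of 0.09 had bounds of -0.35 and 0.54. The summed level of Calca, Calcb, Adm and Adm2 was 50.4 FPKM in Ctrl and 19.11 in CKO. Calca and Calcb made up 79.1% of that sum in Ctrl and 53.5% in CKO. Iapp, the amylin gene of the family, is not analysed here.

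The receptor gene was detected at a low level in both libraries. Calcrl (Entrez gene 54598, chr2:84330626-84425405) had 0.41 FPKM in Ctrl against 0.36 in CKO, from 24 and 19 reads. The log2 ratio of Calcrl was -0.08, and its interval of -1.16 to 0.72 includes more than a 1.5-fold difference either way. A difference in Calcrl was not detectable at this depth. The related receptor gene Calcr is not analysed here.

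Ramp3, an accessory protein of the adrenomedullin receptor, was lower in CKO. Ramp3 (Entrez gene 56089, chr11:6658506-6677478) was at 9.43 FPKM in Ctrl, with an interval of 7.95 to 11.1, and at 4.99 in CKO, with an interval of 3.89 to 6.30. These intervals, from 143 and 70 reads, do not overlap. The log2 ratio of Ramp3 was -0.85, with an interval of -1.34 to -0.48. In the authors' deposited table Ramp3 has a false discovery rate of 0.000131 and a log2 fold change of -0.92, and it is not called.

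Ramp1, the accessory protein of the CGRP receptor, lay on the other side. Ramp1 (Entrez gene 51801, chr1:91179822-91225196) was at 4.86 FPKM in Ctrl, with an interval of 3.88 to 6.01, and at 6.23 in CKO, with an interval of 5.20 to 7.41. These intervals overlap. The log2 ratio of Ramp1 from FPKM was 0.33, under the 1.5-fold rule. Its reads, 85 in Ctrl and 128 in CKO, gave a log2 ratio of 0.72 (0.31 to 1.13), which passes that rule. By the ratio of reads 4.05% of all measured genes were lower and 2.68% higher.

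Ramp2, the vascular adrenomedullin receptor partner, had 0.94 FPKM in Ctrl against 0.93 in CKO. With 10 and 9 reads, the log2 interval of Ramp2 (Entrez gene 54409, chr11:101246334-101248250) ran from -1.50 to 1.43, so a difference was not detectable at this depth.

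**Figure D3:**
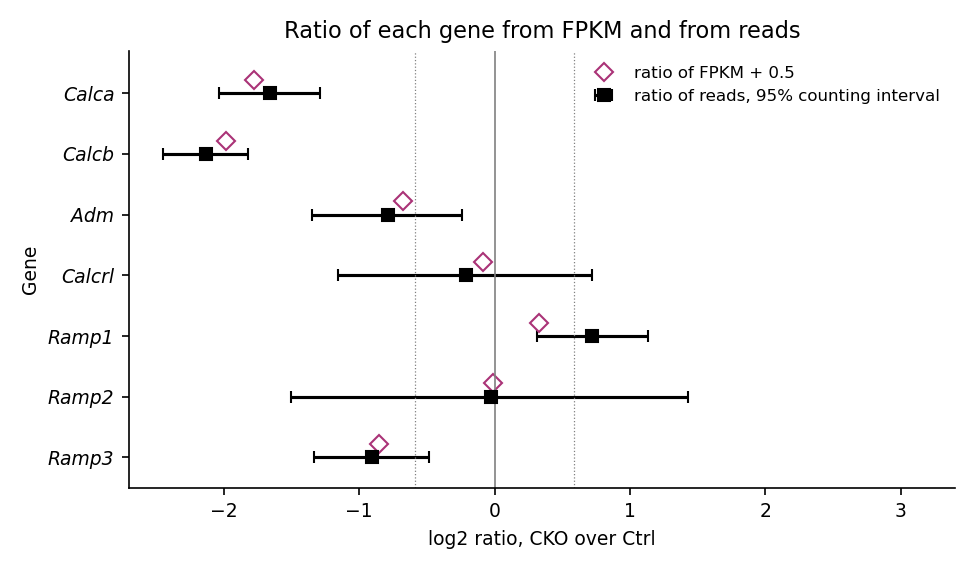
Log2 ratio (CKO over Ctrl) of each gene from reads (black squares, with 95% counting intervals) and from FPKM + 0.5 (open diamonds), 1 library per group; dotted lines mark 1.5-fold. Ramp1 passes the 1.5-fold line by reads (0.72) and not by FPKM (0.33), and the other genes lie on the same side of it by both.

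The order of the Ramp genes differed between the libraries. In Ctrl Ramp3 exceeded Ramp1 1.94-fold in FPKM (counting interval 1.47 to 2.57), while in CKO the ratio was 0.80 (0.59 to 1.08), an interval that includes equal levels. Ramp3 made up 61.9% of the summed Ramp level of 15.23 FPKM in Ctrl and 41.1% of 12.15 FPKM in CKO. The share of Ramp1 was 31.9% in Ctrl and 51.3% in CKO, and that of Ramp2 was 6.17% and 7.65%. Calcrl lay below the summed Ramp genes in both libraries. Ramp3 exceeded Calcrl 23-fold in Ctrl (14.9 to 37.1) and 13.9-fold in CKO (8.25 to 24.4).

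**Figure D4:**
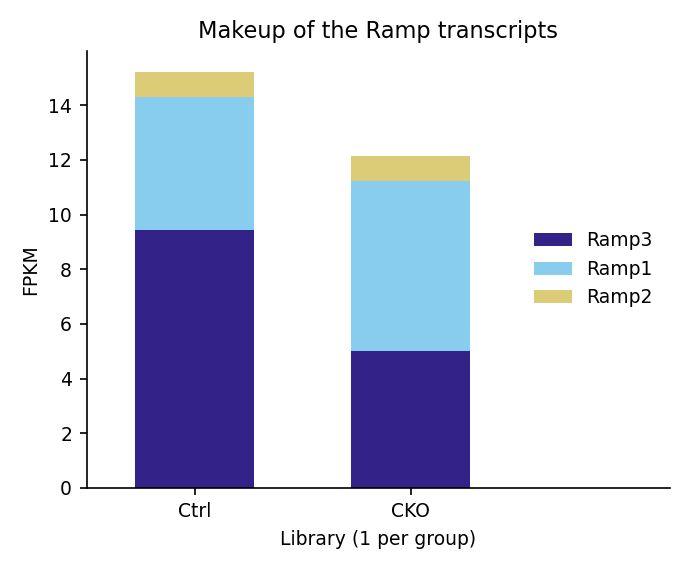
Summed FPKM of Ramp3, Ramp1 and Ramp2 in the Ctrl library and the CKO library, 1 library per group, as stacked bars from 0. Ramp3 is at 9.43 FPKM in Ctrl against 4.99 in CKO, and Ramp1 at 4.86 against 6.23.

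The sorted cells carried the markers of luminal cells. The 8 luminal markers summed to 16432 FPKM in Ctrl and 21051 in CKO, led by the keratin genes Krt18 and Krt8. In bulk RNA, fewer cells of a type and less RNA per cell cannot be told apart. The 10 hormone-sensing luminal markers summed to 962.3 FPKM in Ctrl and 1025 in CKO. Of these 9 were measured, with 1 higher (Ly6a) and 1 lower (Prom1) in CKO. Of these 9 genes, 4 had a log2 ratio below 0 and 5 above 0. The progesterone receptor gene Pgr had a log2 ratio of -0.44, the prolactin receptor gene Prlr of -0.30 and Areg of 0.20. The 10 basal markers summed to 160.6 FPKM in Ctrl and 293.6 in CKO, and of the 9 measured, 7 were higher and 1 lower. Krt14, a keratin gene of basal cells, had 44.49 FPKM in Ctrl against 90.79 in CKO, and Trp63, a basal transcription factor gene, was lower, with 2.96 against 1.05. The part of either shift in the values of Calca, Calcb, Adm and Ramp3 was not tested.

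Markers of nerves and neuroendocrine cells, other known sources of CGRP, were near 0. The 11 neuronal markers in the table summed to 1.63 FPKM in Ctrl and 1.05 in CKO, and 0 of them had a mean of 1 FPKM. Scn10a, a sodium channel gene of sensory neurons, was at the floor of 0.01 in both libraries. The 4 neuroendocrine markers in the table summed to 0.43 and 0.38 FPKM. Markers of endothelial cells, in which Calcrl, Ramp2 and Ramp3 are known to be expressed, were present at low levels. The 17 endothelial markers summed to 65.16 FPKM in Ctrl and 68.64 in CKO, with none at the floor. Of 13 measured, 0 were higher and 2 were lower in CKO, with a median log2 ratio of 0.05. Those lower were Prox1, a lymphatic regulator gene, at 2.32 and 0.71 FPKM, and the VEGF receptor gene Flt1 at 2.32 and 1.37. The vessel genes Pecam1 and Cdh5 were at 4.48 and 6.10 FPKM and at 3.78 and 3.93. The log2 interval of Pecam1 was 0.15 to 0.72. Eng was at 12.06 and 14.44 FPKM (0.09 to 0.44), and Vwf at 9.98 and 8.52 (-0.37 to -0.11). Of the 13 measured endothelial markers, 5 had a log2 ratio below 0 and 8 above 0. The 7 pericyte markers summed to 50.84 FPKM in Ctrl and 41.34 in CKO, of which the Notch receptor gene Notch3 made up 46 and 37.1. The 6 fibroblast markers summed to 40.29 and 42.56 FPKM, and their members differed in direction. The matrix gene Dcn was at 25.57 and 30.74 FPKM, with a log2 interval of 0.12 to 0.44. The collagen gene Col1a2 was at 4.24 and 3.22 FPKM (-0.67 to -0.13). Pdgfra, a growth factor receptor gene, was at 1.05 and 0.31 FPKM (-2.39 to -1.03), and the matrix gene Lum at 1.16 and 0.38 (-2.87 to -0.50), both with a mean under 1 FPKM. The 6 luminal progenitor markers summed to 1535 and 1609 FPKM, the 6 myeloid markers to 16.61 and 20.96, and the 6 lymphocyte markers to 1.63 and 1.60. The part of these cells in the values of the receptor genes was not tested.

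Other genes of the pathway were called by the same rule. Besides the members, 125 genes were listed for peptide processing, receptor signalling and related peptides and receptors, and 68 were measured. Of these 3 were higher (Arrb2, Nmu and Cck) and 0 lower, with a median log2 ratio of 0.03. Over all measured genes 2.25% were higher and 2.97% lower, so counts this small are a description only. Crcp, a component that aids CGRP receptor signalling, was at 15.36 and 16.17 FPKM. Ackr3, a scavenger receptor that also binds adrenomedullin, was at 4.15 and 4.83. For neither did the interval exclude a ratio of 1.

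Of 7 measured genes of enzymes that mature the peptides 0 were called in either direction, with a median of 0.00, and 3 (Cpe, Cpd and Pam) had an interval that excluded a ratio of 1. Furin, a proprotein convertase gene, was at 63.16 and 61.29 FPKM. Pam, which encodes the enzyme that amidates calcitonin, CGRP and adrenomedullin, was at 36.94 and 32.57 FPKM, with a log2 interval of -0.29 to -0.09. The carboxypeptidase gene Cpe was at 8.16 and 11.59 FPKM, with an interval of 0.25 to 0.77, and Cpd at 20.42 and 16.8, with an interval of -0.37 to -0.19. The neuroendocrine convertase genes Pcsk1 and Pcsk2 were at 0.16 and 0.02 FPKM and at 0.01 and 0.02. Of the 3 peptide-degrading enzyme genes 0 were called, with a median of -0.11, and neprilysin (Mme) was at 7.2 and 6.62 FPKM, endothelin-converting enzyme (Ece1) at 36.32 and 31.51.

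Genes of Gs and cyclic AMP signalling, 20 measured, had 0 called in either direction and a median log2 ratio of 0.00. Gnas, which encodes the Gs alpha subunit, had 462.5 FPKM in Ctrl against 462.1 in CKO. The cyclase gene Adcy3 had a log2 ratio of -0.49, the kinase subunit gene Prkar1b -0.40, and the transcription factor genes Creb1 and Crem -0.39 and -0.49. The intervals of these 4 genes excluded a ratio of 1, and their ratios were under 1.5-fold. The same held for Prkar2a (-0.42 to -0.08) and Prkar2b (-0.31 to -0.09), which were lower. It also held for Atf1 (0.03 to 0.33) and Crtc2 (0.04 to 0.31), which were higher. Of the 20 genes, 10 had a log2 ratio below 0 and 10 above 0. Of 6 measured cyclic AMP phosphodiesterase genes 0 were called, with a median of -0.22. Pde4b, the most abundant, was at 80.13 and 101.8 FPKM, and Pde7b at 6.47 and 4.26. Of 7 measured genes of receptor desensitisation 1 was higher, the beta-arrestin gene Arrb2, at 2.19 and 3.62 FPKM, and 0 were lower, with a median of 0.09. No pair of read numbers matched for Arrb2, so its interval (0.19 to 1.26) rests on reads estimated from FPKM and length. The receptor kinase gene Grk4 had a log2 ratio of -0.35. The kinase gene Adrbk1, the most abundant, was at 40.24 and 46.21 FPKM (0.10 to 0.30), and Grk6 at 19.56 and 22.06 (0.03 to 0.33). Of the 7 desensitisation genes, 2 had a log2 ratio below 0 and 5 above 0.

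Genes that cyclic AMP is known to induce, 9 measured, had 0 called and a median of 0.17, with 8 log2 ratios above 0. Fos, the most abundant, was at 898.1 and 962.3 FPKM, and Junb at 547.4 and 634.3. The nuclear receptor gene Nr4a1 had a log2 ratio of 0.29. Nr4a3, named after its values were seen, was the measured gene below 0, at 4 FPKM in Ctrl and 2.54 in CKO. Its log2 ratio was -0.57 from FPKM and -0.27 from reads, with an interval of -0.57 to 0.02 that included no difference.

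**Figure D5:**
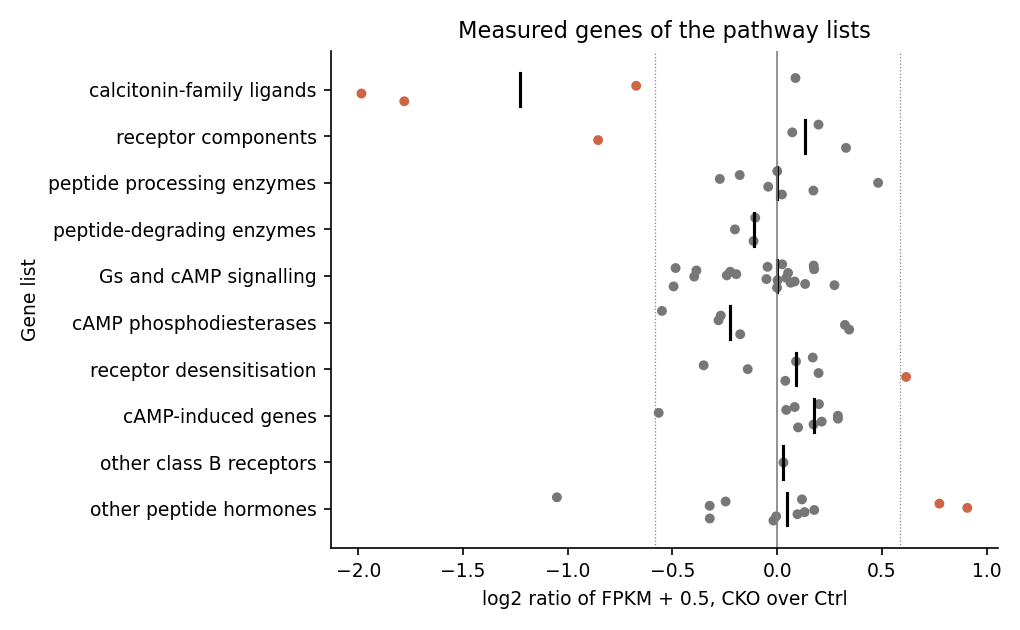
Log2 ratio of FPKM + 0.5 (CKO over Ctrl) of each measured gene of the pathway lists, 1 point per gene; black bars are list medians, orange points are genes called higher or lower, and dotted lines mark 1.5-fold. The members Calca, Calcb and Adm pull the ligand median to -1.23, and the other lists have medians between -0.22 and 0.17.

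The genes with the most similar levels in the 2 libraries were found by distance in log2 (FPKM + 0.5) among the 8870 genes above. Nearest to Calca were Btn1a1, a milk fat secretion gene (distance 0.48, 18.47 and 8.33 FPKM), the potassium channel subunit gene Kcns3 (0.52, 15.86 and 5.90) and LOC108169182 (0.59). Nearest to Calcb were the protease gene Adamts13 (0.43, 12.82 and 4.47 FPKM), 5430419D17Rik (0.50) and again Kcns3 (0.54). Nearest to Ramp3 were the secreted glycoprotein gene Olfm1 (0.07), the aminotransferase gene Gpt2 (0.08) and the carboxylate carrier gene Slc13a2 (0.08). Likeness over 2 libraries describes these values only.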

How the data were processed

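RNA sequencing gave 1 library of Ctrl and 1 of CKO. The submitters' processing notes name HISAT, Bowtie2, RSEM and mm10, without versions or roles. The deposited expression values are FPKM by their size: weighted by length in kilobases, the Ctrl column sums to 999609 and the CKO column to 999909. The deposited log2 fold change equals their log2 ratio, with 0.01 in place of no reads. The deposited p-values come from the authors' Poisson test between the libraries, per the file name. The deposited length column is in bases.

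That test was reproduced from whole reads with a CKO share of 0.4779 of all reads, chosen as the value that matched most of 250 genes (242 matched). A single pair of read numbers matched for 14131 of 16906 genes (83.6%), 403 had several pairs (the nearest was used), and 2372 had none, for which reads were estimated from FPKM and length. CKO reads were sought within about 1% and Ctrl reads within 35% of the value predicted from FPKM and length less 36 bases. With 1 library per group no test across samples was possible. A pseudocount of 0.5 FPKM was added for ratios.

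The genes named were the 7 members and, per list, up to 4 measured genes with intervals farthest from a ratio of 1 and the most abundant gene. The 3 nearest genes in level and the 3 nearest neighbours of Calca and Calcb were added. Pcsk1, Pcsk2, Cdh5, Flt1, Scn10a, Pdgfra, Lum, Nr4a3, Prkar2a, Prkar2b, Atf1 and Crtc2 were chosen after their values were seen. The members and lists were chosen with earlier results of these data known. RefSeq (GRCm38.p6) gave positions, miRNAs and promoters. Python 3.11.15, scipy 1.17.1 and pandas 2.3.3 were used. The deleted microRNA genes are not analysed here.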

Additional observations from a re-analysis of the deposited data

How the results depend on the processing

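Calca, Calcb, Adm and Ramp3 stayed lower in CKO and at least 1.5-fold apart with 0.1 or 1 FPKM added, with upper-quartile or TPM scaling, and by reads. Their log2 ratios ran from -1.90 to -1.66 for Calca, -2.13 to -1.87 for Calcb, -0.79 to -0.60 for Adm and -0.96 to -0.80 for Ramp3. By the ratio of reads 1 member (Ramp1) was higher in place of 0; this follows from the different transcript length that its Ctrl value implies. With a fold of 2, 2 members were lower in place of 4 (Calca and Calcb), and 0 other pathway genes were higher in place of 3. With a minimum of 5 FPKM in the higher library, 3 members were lower, since Adm does not reach it, and 1 other pathway gene was higher. Among the other pathway genes 2 were lower in place of 0 with 0.1 FPKM added and with TPM scaling, and 1 by reads. Upper-quartile scaling moved the log2 ratios of the 7 members by -0.03 to -0.01 and TPM scaling by -0.14 to -0.06. No paired analysis was possible because each group has 1 library. Depth limits Calcrl and Ramp2, with at most 24 and 10 reads in a library.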

Other observations

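Of 40 other peptide hormone genes listed, 25 were in the table and 12 were measured. By the 1.5-fold rule 2 of these 12 were higher in CKO and 0 lower, against 2.25% and 2.97% of all measured genes. Their log2 ratios lay below 0 for 6 genes and above 0 for 6, with a median of 0.05. Nmu, which encodes neuromedin U, had 3.19 FPKM in Ctrl against 6.42 in CKO, from 32 and 59 reads, with a log2 interval of 0.37 to 1.68. Cck, the cholecystokinin gene, was at 2.12 and 3.98 FPKM, from 18 and 31 reads, with an interval of 0.03 to 1.84. Stc2, a stanniocalcin gene and the most abundant of the list, was at 32.29 and 25.73 FPKM, with a log2 interval of -0.49 to -0.16 that excludes no difference and a ratio under 1.5-fold. The substance P gene Tac1, often found with CGRP in sensory nerves, had 6.79 FPKM in Ctrl against 5.33 in CKO, and its interval of -0.76 to 0.18 included no difference. Ghrl, the ghrelin gene, had a log2 ratio of -1.05 from 17 reads in Ctrl and 7 in CKO, and its interval of -2.66 to 0.19 included no difference. Tac1 and Ghrl were picked with their values known.

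Among 13 other class B receptor genes, to which the calcitonin receptors belong, 9 were in the table and 1 was measured. This was Vipr1, a receptor gene for vasoactive intestinal peptide, with 14.88 FPKM in Ctrl against 15.19 in CKO, with a log2 interval of -0.13 to 0.14. Vipr1 thus exceeded Calcrl in both libraries.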
